A study of Mus musculus with 18 samples.

Results

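The choroid plexus is the vascular tissue of the brain ventricles whose epithelium secretes cerebrospinal fluid. Its receptors and identity factors were described through 10 genes, taken by symbol from the 50584 genes of a deposited count table of mouse choroid plexus. They were chosen with earlier results of these data known. The 10 were 5 receptors (Prlr, Htr2c, Folr1, Lepr and Lrp2), 3 transcription factors (Otx2, Lmx1a and Msx1) and a pair of further epithelial products (Clic6 and F5). All 10 of 10 passed the filter on low counts, which left 16598 genes for testing.

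The table held 18 libraries of total RNA from choroid plexus of mice of related strains at 12 and 16 weeks of age. There were 6 libraries of MRL/lpr at 16 weeks, 3 of MRL/+ at 16 weeks, 6 of MRL/lpr at 12 weeks and 3 of MRL/+ at 12 weeks. MRL/lpr mice are homozygous for the lpr allele of Fas, a germline allele present in every cell, and develop a spontaneous lupus-like disease with age. MRL/+ mice share the MRL background with intact Fas and serve as the controls. No treatment is named in the labels, and neither sex nor the number of animals behind a library is given in the sources used here. The labels do not call the libraries of a group separate animals, so p-values reflect only how these samples vary, which may be technical variation.

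As background, the choroid plexus epithelium is one of the places where hormones and nutrients of the blood meet the brain. The prolactin receptor (Prlr) and the leptin receptor (Lepr) are cytokine-type receptors that signal through JAK and STAT proteins and are abundant in this epithelium. The serotonin 2C receptor (Htr2c) couples to Gq and phospholipase C, its transcript is edited by ADAR enzymes, and the choroid plexus is its classical site of high expression. Folate receptor alpha (Folr1) carries 5-methyltetrahydrofolate into the cerebrospinal fluid, and megalin (Lrp2) is a large endocytic receptor of absorptive epithelia. The homeobox factors Otx2, Lmx1a and Msx1 act in the dorsal midline of the developing brain, where the choroid plexus forms, and Otx2 is also needed to keep the adult tissue. Clic6 belongs to the chloride intracellular channel family, and F5 encodes coagulation factor V.

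The tissue label was checked against 40 genes of the choroid plexus epithelium, none of them among the 10. Summed over those 40 genes, the level was 169052 to 302228 CPM (counts scaled to a common library size) in MRL/lpr at 16 weeks and 287567 to 335455 CPM in MRL/+ at 16 weeks. At 12 weeks the sums were 215627 to 326687 CPM in MRL/lpr and 203176 to 287554 CPM in MRL/+. The 17 transport genes of this list made up little of these sums. They summed to 7470 to 11315 CPM in MRL/lpr and 10542 to 13214 CPM in MRL/+ at 16 weeks. Their 12-week sums were 8684 to 12292 CPM in MRL/lpr and 11042 to 12828 CPM in MRL/+. Library totals ran from 11164284 to 14602253 counts. Markers of immune cells differed between the strains: 17 of 17 genes were higher in MRL/lpr at both ages. Their summed level was 548 to 12814 CPM (median 7835) in MRL/lpr against 51.4 to 63.2 CPM (median 62.4) in MRL/+ at 16 weeks. At 12 weeks it was 1999 to 6247 CPM (median 2703) in MRL/lpr against 46.1 to 59.6 CPM (median 55.2) in MRL/+. No immune marker was at 0 in all 18 libraries, and Cd3e, Cd8a, Ms4a1 and Cd79b were at 0 in 2 to 4 libraries each. Macrophage markers were higher for 10 of 14 genes at 16 weeks and 8 of 14 at 12 weeks, with sums of 412 to 3008 CPM in MRL/lpr against 131 to 187 CPM in MRL/+ at 16 weeks, and of 694 to 3761 CPM in MRL/lpr against 108 to 122 CPM in MRL/+ at 12 weeks. None of the 14 was at 0 in any library. Fibroblast markers summed to 2903 to 4902 CPM in MRL/lpr against 5201 to 7306 CPM in MRL/+ at 16 weeks, with 0 of 10 genes higher and 2 lower. At 12 weeks they summed to 3712 to 5445 CPM in MRL/lpr against 5424 to 6041 CPM in MRL/+, with 1 of 10 higher, and none was at 0 in any library. Of 9 heat shock genes, 3 were lower in MRL/lpr at 16 weeks and 4 at 12 weeks. Sums of ependymal, neuronal and astrocyte markers overlapped between the strains at both ages. Markers of pineal gland, cerebellum or skeletal muscle stood out in 4 libraries: pineal gland genes summed to 177 and 161 CPM in MRL/lpr at 12 weeks replicates 1 and 4, cerebellar genes to 544 CPM in MRL/+ at 12 weeks replicate 1, and skeletal muscle genes to 555 CPM in MRL/+ at 16 weeks replicate 1. Other libraries held markers of neighbouring tissue too. In MRL/lpr at 16 weeks, astrocyte, neuronal and cerebellar markers reached 1037, 641 and 340 CPM, against highest sums of 939, 608 and 544 CPM in MRL/+ at 12 weeks. Fas itself was counted over all of its exons, and its count was not used here as a check of the lpr insertion. In bulk tissue, fewer epithelial cells and less RNA per epithelial cell cannot be told apart. Each gene was therefore also measured after scaling the libraries to the geometric mean of the 40 epithelial genes.

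Promoter sequences are shown for Prlr, Htr2c, Lmx1a and Msx1, the 4 members that were called lower in MRL/lpr at 16 weeks. They are the 250 bases before annotated transcription starts in RefSeq on GRCm38.p6, written 5′ to 3′ on the strand of the gene. For Prlr, the first and second of the annotated starts are given. In the coordinates of the deposited table (GRCm38), Prlr spans chr15:10177238-10349180 (+), Htr2c chrX:146962513-147197277 (+), Lmx1a chr1:167689237-167848741 (+) and Msx1 chr5:37820485-37824583 (-).
Prlr, first start, chr15:10176988-10177237 (+): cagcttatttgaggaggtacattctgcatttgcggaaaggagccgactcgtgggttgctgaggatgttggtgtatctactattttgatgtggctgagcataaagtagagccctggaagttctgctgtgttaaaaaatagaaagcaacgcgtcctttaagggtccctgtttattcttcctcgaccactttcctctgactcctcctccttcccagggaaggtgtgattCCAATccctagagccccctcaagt
Prlr, second start, chr15:10223656-10223905 (+): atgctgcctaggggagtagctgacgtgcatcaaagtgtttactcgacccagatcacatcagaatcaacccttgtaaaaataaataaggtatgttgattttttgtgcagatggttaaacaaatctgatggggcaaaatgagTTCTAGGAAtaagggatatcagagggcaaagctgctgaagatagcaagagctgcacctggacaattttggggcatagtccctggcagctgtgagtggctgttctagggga
Htr2c, chrX:146962263-146962512 (+): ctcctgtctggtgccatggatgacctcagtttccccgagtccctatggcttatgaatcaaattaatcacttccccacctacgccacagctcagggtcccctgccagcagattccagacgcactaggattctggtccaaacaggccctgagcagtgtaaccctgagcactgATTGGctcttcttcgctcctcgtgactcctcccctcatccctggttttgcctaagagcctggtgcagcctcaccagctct
Lmx1a, chr1:167689308-167689557 (+): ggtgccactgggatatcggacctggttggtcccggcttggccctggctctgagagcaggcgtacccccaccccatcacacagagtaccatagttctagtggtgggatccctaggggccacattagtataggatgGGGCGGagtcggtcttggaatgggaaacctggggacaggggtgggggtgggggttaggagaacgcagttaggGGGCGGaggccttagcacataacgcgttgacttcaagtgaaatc
Msx1, chr5:37824586-37824835 (-): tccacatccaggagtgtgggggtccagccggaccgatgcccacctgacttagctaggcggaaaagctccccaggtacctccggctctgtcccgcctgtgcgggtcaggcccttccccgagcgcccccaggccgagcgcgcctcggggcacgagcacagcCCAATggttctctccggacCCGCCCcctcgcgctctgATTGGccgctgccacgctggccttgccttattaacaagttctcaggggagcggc
Capitals mark matches, on either strand, to 4 short motifs: the STAT core TTCNNNGAA, the OTX core TAATCC, the CCAAT box and the GC box GGGCGG. The first Prlr window held a CCAAT box 24 bases before the start, and the second held a STAT core 110 bases before it. The Htr2c window held a CCAAT box on the reverse strand, 80 bases before the start. Lmx1a had 2 GC boxes, and Msx1 had 2 CCAAT boxes and 1 GC box. The table matched 8 of the 10 genes, with 14 windows. Among these 14, the STAT core was found in 2, the OTX core in 1, the CCAAT box in 5 and the GC box in 5. Among all 32851 windows of the same length, 7.02% held the STAT core, 6.25% the OTX core, 33.8% the CCAAT box and 32.7% the GC box. None of the 5 printed windows held the OTX core. A match describes letters in these windows and is not evidence of binding.

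Levels between genes were compared per length, as reads scaled to exon length and library size (RPKM), averaged over all 18 libraries with their SD. Folr1, with 465 ± 79.3 RPKM, and Clic6, with 394 ± 57.0 RPKM, were the highest of the 10, and the pair lay within their SDs of each other. Compared within each library, Folr1 was above Clic6 in all but MRL/+ at 12 weeks replicate 3 (487 against 503 RPKM). Next came F5 (89.7 ± 25.4 RPKM), Otx2 (86.2 ± 12.4 RPKM), Msx1 (80.5 ± 17.8 RPKM) and Htr2c (78.8 ± 21.3 RPKM), which did not differ beyond their pooled spread, although F5 (118 ± 12.9 RPKM) stood above Otx2 (93.5 ± 7.99 RPKM) in MRL/+ at 12 weeks. Prlr averaged 27.3 ± 13.04 RPKM, Lepr 14.7 ± 3.37 RPKM and Lmx1a 12.0 ± 1.71 RPKM, the last pair within their SDs of each other. The pooled SDs hold the difference between the strains. Within MRL/lpr, Prlr read 18.6 ± 7.81 RPKM at 16 weeks and 21.2 ± 8.23 RPKM at 12 weeks, within its SD of Lepr (12.7 ± 3.56 and 14.7 ± 3.10 RPKM). Within MRL/+, Prlr read 40.002 ± 8.88 RPKM at 16 weeks and 44.3 ± 5.66 RPKM at 12 weeks, beyond the SDs of Lepr (16.6 ± 1.87 and 16.6 ± 3.72 RPKM). Lrp2 stood apart at the bottom of the order, at 0.129 ± 0.0521 RPKM. Folate receptor alpha and the 3 homeobox factors were read at high to moderate levels in every library, whereas megalin rested on 13 to 60 reads per library.

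**Figure D1:**
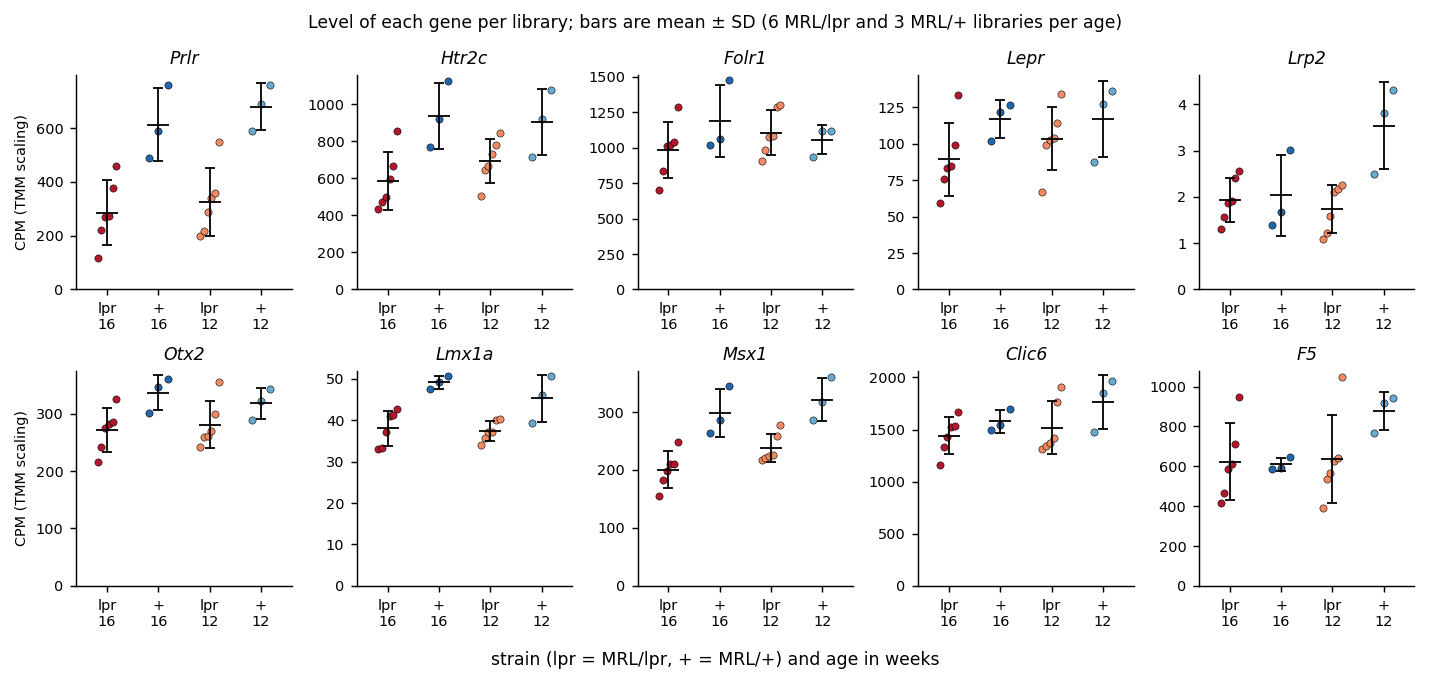
Level of the 10 genes in every library, as CPM with TMM-scaled library sizes, in 1 panel per gene with groups in the order MRL/lpr 16 weeks, MRL/+ 16 weeks, MRL/lpr 12 weeks and MRL/+ 12 weeks. Points are libraries and bars are group means ± SD. For Prlr, the MRL/lpr libraries at 16 weeks lie between 115 and 458 CPM, all below the MRL/+ libraries of that age.

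In MRL/lpr at 16 weeks, transcripts of 4 of the 10 genes were lower than in MRL/+ at that age: the prolactin receptor by 2.15-fold, the serotonin 2C receptor by 1.60-fold, and the dorsal midline factors Msx1 by 1.49-fold and Lmx1a by 1.29-fold. The other 6 members did not pass the test, and none was higher. The test was edgeR's robust quasi-likelihood test over all 16598 genes, with a gene called at a Benjamini-Hochberg adjusted p under 0.05. Among all genes, 2.64% were called lower in this comparison. The median log2 fold change was -0.34 over the 10 members and 0.025 over all genes. MRL/lpr lay wholly below MRL/+ for 3 of the 10, against 8.75% of all genes. At 12 weeks the log2 fold changes were of similar size for Prlr and Msx1, but 0 of 10 members were called, while 1.34% of all genes were called lower. At that age 4 of 10 had an unadjusted p under 0.05, against 21.4% of all genes. DESeq2 called 3 of 10, against 10% of all genes, and limma voom called 7 of 10, against 21%. The shares of 21.4%, 10% and 21% count both directions, while the members so counted were all lower in MRL/lpr. Called lower were 329 of 16571 genes by DESeq2 and 1910 of 16598 by voom. Groups did not overlap for 3 of 10 members at 12 weeks, with MRL/lpr lower, against 4.98% of all genes.

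Prlr, which binds prolactin and, in mice, placental lactogens, read 115 to 458 (median 271) CPM in MRL/lpr at 16 weeks, against 590.1, 491 and 760.05 CPM in MRL/+. The groups did not overlap, and the highest MRL/lpr library still lay below the lowest MRL/+ library. Group means were 286 ± 119.7 CPM in MRL/lpr and 614 ± 136 CPM in MRL/+ (SD, n = 6 and 3), with a log2 fold change of -1.10 (SE 0.34, adjusted p 0.0435). At 12 weeks Prlr read 200.01 to 549 (median 314) CPM in MRL/lpr, against 589, 762 and 689 CPM in MRL/+. Again every MRL/lpr library was below every MRL/+ library. The 12-week means were 326 ± 126 CPM in MRL/lpr and 680.0 ± 86.9 CPM in MRL/+ (SD, n = 6 and 3), with a log2 fold change of -1.06 (SE 0.34, adjusted p 0.0694). The 16-week call was narrow: when each of the 9 libraries was left out in turn, Prlr stayed under the threshold in 1 of 9 fits, the one without MRL/lpr replicate 5 (adjusted p 0.0159 to 0.183 over the 9). Its log2 fold change was -1.29 to -0.91 over those fits.

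Htr2c read 435 to 856 (median 548) CPM in MRL/lpr at 16 weeks, against 921, 772 and 1126 CPM in MRL/+. The groups overlapped in the MRL/lpr library with 856 CPM, which exceeded the lowest MRL/+ library. The means were 588 ± 157 CPM in MRL/lpr and 939.6 ± 178 CPM in MRL/+ (SD, n = 6 and 3), and the log2 fold change was -0.68 (SE 0.21, adjusted p 0.0465). At 12 weeks Htr2c averaged 695 ± 119 CPM in MRL/lpr and 905 ± 180.2 CPM in MRL/+ (SD, n = 6 and 3), with overlapping groups and a log2 fold change of -0.38 (SE 0.21, adjusted p 0.314). The 16-week call held in 2 of 9 fits with 1 library left out, those without MRL/lpr replicates 5 and 6 (adjusted p 0.00984 to 0.209, log2 fold change -0.82 to -0.53). The small RNA genes inside Htr2c introns read at most 0.158 CPM each on average, against 735 CPM for Htr2c.

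The other 3 receptors did not pass the test at either age. Folr1 read 703 to 1283 (median 1015) CPM in MRL/lpr at 16 weeks against 1017, 1060.3 and 1477 CPM in MRL/+, with a log2 fold change of -0.27 (SE 0.18, adjusted p 0.318). At 12 weeks it read 906 to 1297 (median 1079.6) CPM in MRL/lpr against 937, 1115 and 1119 CPM in MRL/+, with a log2 fold change of 0.064 (SE 0.18, adjusted p 0.863). The Folr1 groups overlapped at both ages. Lepr read 59.5 to 133 (median 84.1) CPM in MRL/lpr at 16 weeks against 127, 102 and 122 CPM in MRL/+, with a log2 fold change of -0.39 (SE 0.22, adjusted p 0.248). For the leptin receptor the 12-week values were 67.2 to 134 (median 103) CPM in MRL/lpr against 87.3, 137 and 128 CPM in MRL/+, with a log2 fold change of -0.18 (SE 0.22, adjusted p 0.673). The Lepr groups overlapped at both ages.

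Lrp2 was the receptor with the fewest reads: 29, 17, 32, 26, 27 and 19 in MRL/lpr at 16 weeks against 16, 31 and 21 in MRL/+, and 13, 22, 28, 33, 14 and 31 in MRL/lpr at 12 weeks against 60, 32 and 55 in MRL/+. Both of the highest counts were in MRL/+ at 12 weeks, where the lowest count, 32, was below 1 MRL/lpr count of that age, although not after scaling for depth. Its means were 1.94 ± 0.476 CPM in MRL/lpr and 2.03 ± 0.866 CPM in MRL/+ at 16 weeks, with a log2 fold change of -0.066 (SE 0.32, adjusted p 0.904). At 12 weeks they were 1.74 ± 0.513 CPM in MRL/lpr and 3.55 ± 0.933 CPM in MRL/+, with a log2 fold change of -1.02 (SE 0.30, adjusted p 0.0556), just outside the threshold and with groups that did not overlap in CPM.

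Among the identity factors, Msx1, a homeobox target of BMP signalling in the roof plate, read 154 to 248 (median 204) CPM in MRL/lpr at 16 weeks, against 264, 286 and 344 CPM in MRL/+. Every MRL/lpr library was below every MRL/+ library. The means were 201 ± 31.3 CPM in MRL/lpr and 298 ± 41.7 CPM in MRL/+ (SD, n = 6 and 3), and the log2 fold change was -0.57 (SE 0.14, adjusted p 0.0135). At 12 weeks Msx1 read 218 to 277 (median 225) CPM in MRL/lpr against 286, 317 and 361 CPM in MRL/+, again with no overlap, and the log2 fold change was -0.44 (SE 0.14, adjusted p 0.071). Its 16-week call held in 8 of 9 fits with 1 library left out and was lost without MRL/+ replicate 3 (adjusted p 0.108).

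Lmx1a, a LIM homeobox factor of the roof plate, read 33.0 to 42.7 (median 39.0) CPM in MRL/lpr at 16 weeks, against 47.5, 50.7 and 49.1 CPM in MRL/+. The groups did not overlap, and the spread was small in both. The means were 38.0 ± 4.25 CPM in MRL/lpr and 49.1 ± 1.57 CPM in MRL/+ (SD, n = 6 and 3), with a log2 fold change of -0.37 (SE 0.10, adjusted p 0.0282). At 12 weeks they were 37.4 ± 2.42 CPM in MRL/lpr and 45.3 ± 5.69 CPM in MRL/+ (SD, n = 6 and 3), with a log2 fold change of -0.28 (SE 0.10, adjusted p 0.122) and 2 MRL/lpr libraries above the lowest MRL/+ library. The 16-week call held in 3 of 9 fits with 1 library left out, those without MRL/lpr replicates 4, 5 and 6. Otx2 read 215 to 326 (median 279) CPM in MRL/lpr at 16 weeks, against 359.7, 347 and 302 CPM in MRL/+, with a log2 fold change of -0.31 (SE 0.14, adjusted p 0.152). Its 12-week values were 242 to 354 (median 265) CPM in MRL/lpr against 288, 322 and 342 CPM in MRL/+, with a log2 fold change of -0.18 (SE 0.14, adjusted p 0.487). Otx2 groups overlapped at both ages. Otx2 is also expressed in the pineal gland, and the MRL/lpr 12-week libraries with raised pineal gland genes, replicates 1 and 4, read 242 and 259 CPM of Otx2, the lowest of the 6.

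The epithelial products Clic6 and F5 did not pass the test at either age. Clic6 read 1160.2 to 1664 (median 1476) CPM in MRL/lpr at 16 weeks against 1492, 1543 and 1702 CPM in MRL/+, with a log2 fold change of -0.13 (SE 0.15, adjusted p 0.574). At 12 weeks its values were 1309 to 1909 (median 1392) CPM in MRL/lpr against 1475, 1847 and 1967 CPM in MRL/+, with a log2 fold change of -0.22 (SE 0.15, adjusted p 0.441). F5 read 414 to 948 (median 598) CPM in MRL/lpr at 16 weeks against 588, 648 and 593 CPM in MRL/+, with a log2 fold change of 0.032 (SE 0.26, adjusted p 0.947). In F5 the 6 MRL/lpr libraries spread on both sides of the 3 MRL/+ libraries, which lay close together. At 12 weeks F5 read 391 to 1045 (median 597) CPM in MRL/lpr against 766, 944 and 917 CPM in MRL/+, with a log2 fold change of -0.47 (SE 0.26, adjusted p 0.314) and 1 MRL/lpr library, replicate 6, above all of MRL/+. Anapc15, which overlaps Folr1 on the opposite strand, averaged 5.33 CPM against 1069 CPM for Folr1, and Gm16548, antisense to F5, averaged 0.834 CPM against 667 CPM. The strand setting of the counting is not given in the sources used here, so reads of such pairs cannot be told apart.

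MRL/lpr at 16 weeks replicate 3 held the lowest of the 6 MRL/lpr values for 8 of the 10 genes, all but Lmx1a and Lrp2. In the same library, the factor from the 40 epithelial genes was 0.735 of the TMM factor, the lowest of the 18, while MRL/+ at 16 weeks replicate 3 had the highest, 1.32. With the 4 libraries with neighbouring tissue left out, which kept only MRL/+ replicates 2 and 3 at each age, 0 of 10 members passed at 16 weeks. Calls fell among all genes as well: 439 of 16598 were lower in the main fit, against 53 of 16701 without these libraries. Prlr then had a log2 fold change of -1.11 (adjusted p 0.133), Htr2c -0.67 (adjusted p 0.132), Lmx1a -0.37 (adjusted p 0.114) and Msx1 -0.63 (adjusted p 0.0552). Leaving out only MRL/+ replicate 1, 2 or 3 of 16 weeks gave 1, 1 and 0 members called at 16 weeks. Of all genes, 92 of 17037, 173 of 17039 and 102 of 17026 were then called lower. Immune, macrophage, fibroblast and heat shock genes moved with strain as given above, and their part in these differences was not tested.

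Scaling to epithelial genes asks how much of each transcript there was for a given amount of epithelial RNA. Of the 40 epithelial genes, 0 were called higher and 5 lower in MRL/lpr at 16 weeks with TMM, and their median log2 fold change was -0.31. Among those 5 were Steap1, a metalloreductase (101 ± 37.5 CPM in MRL/lpr and 245 ± 14.1 CPM in MRL/+, log2 fold change -1.28, adjusted p 0.00511), Kcne2, a potassium channel subunit (613 ± 203 CPM in MRL/lpr and 1151 ± 32.8 CPM in MRL/+, log2 fold change -0.91, adjusted p 0.0227), Perp, a desmosomal membrane protein (149 ± 30.02 CPM in MRL/lpr and 237 ± 36.6 CPM in MRL/+, log2 fold change -0.67, adjusted p 0.0121), and Cab39l, a partner of STRAD and LKB1 kinase (739 ± 141 CPM in MRL/lpr and 1133 ± 49.1 CPM in MRL/+, log2 fold change -0.62, adjusted p 0.0279). The fifth, Baiap2l1, was named after its values were seen (log2 fold change -0.48, adjusted p 0.0442, lost in 8 of 9 fits with 1 library left out). In such fits the call of Cab39l was lost in 4 of 9, that of Kcne2 in 3, that of Perp in 1 and that of Steap1 in 0. Without the 4 libraries with markers of neighbouring tissue, Steap1 passed (adjusted p 0.0409), while Perp (0.0625), Kcne2 (0.103), Cab39l (0.115) and Baiap2l1 (0.152) did not. At 12 weeks 0 of 40 were called. Steap1 (adjusted p 0.00625), Perp (0.0292) and Kcne2 (0.0424) were still called lower at 16 weeks once scaled to the 40 genes. Cab39l (0.114) and Baiap2l1 (0.340) were not called on that scale. The 40 genes thus did not all move together between the strains, and the scaling is not a uniform measure of epithelial RNA. Across all 16598 genes, this scaling put the median log2 fold change at 0.35 at 16 weeks and 0.12 at 12 weeks, against 0.025 and -0.013 with TMM, so the changes below are to be read relative to those medians.

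After epithelial scaling, Prlr and Msx1 were the members that still lay wholly below MRL/+ at 16 weeks, whereas Lmx1a, Otx2, Folr1 and Lepr had log2 fold changes between -0.11 and 0.043. None of the 10 was called: 0.416% of all genes were called lower at 16 weeks and 0.229% at 12 weeks. The unadjusted p was under 0.05 for 3 of 10 members at each age, against 33.3% of all genes at 16 weeks and 16.9% at 12 weeks. Limma voom called 4 of 10 at 16 weeks and 3 of 10 at 12 weeks, against 40.8% and 22.4% of all genes. These shares count both directions, and on that count the 16-week numbers were near the background. The members voom called were all lower in MRL/lpr, whereas of all 16598 genes it called 744 lower at 16 weeks and 268 at 12 weeks. Prlr averaged 301 ± 96.9 CPM in MRL/lpr and 533 ± 75.1 CPM in MRL/+ at 16 weeks (SD, n = 6 and 3), with a log2 fold change of -0.82 (SE 0.28, adjusted p 0.0513). At 12 weeks Prlr averaged 327 ± 116 CPM in MRL/lpr and 626 ± 29.6 CPM in MRL/+ (SD, n = 6 and 3), with a log2 fold change of -0.94 (SE 0.27, adjusted p 0.0583). Its groups did not overlap at either age. Msx1 read 206 to 227 (median 218) CPM in MRL/lpr at 16 weeks against 259, 260.3 and 260.01 CPM in MRL/+, with a log2 fold change of -0.26 (SE 0.10, adjusted p 0.0897). The spread of Msx1 at 16 weeks was narrower on this scale, with SDs of 8.40 CPM in MRL/lpr and 0.766 CPM in MRL/+. At 12 weeks its SD in MRL/lpr was 26.8 CPM, against 24.3 CPM with TMM. Groups did not overlap, with MRL/lpr lower, for 2 of 10 members at 16 weeks and for 1 at 12 weeks (Prlr), against 0.717% and 1.4% of all genes.

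For the other members, no 16-week difference passed after epithelial scaling. Htr2c averaged 629.6 ± 85.8 CPM in MRL/lpr and 819 ± 104 CPM in MRL/+ (SD, n = 6 and 3), with a log2 fold change of -0.38 (SE 0.15, adjusted p 0.0974). Lmx1a averaged 41.5 ± 3.98 CPM in MRL/lpr and 43.3 ± 5.38 CPM in MRL/+, with a log2 fold change of -0.059 (SE 0.11, adjusted p 0.708). The log2 fold changes of the rest at 16 weeks were -0.02 (adjusted p 0.925) for Otx2, -0.11 (adjusted p 0.665) for Lepr, 0.043 (adjusted p 0.802) for Folr1, 0.18 (adjusted p 0.276) for Clic6, 0.26 (adjusted p 0.618) for Lrp2 and 0.32 (adjusted p 0.331) for F5. At 12 weeks they were -0.30 (adjusted p 0.111) for Msx1, -0.24 (adjusted p 0.453) for Htr2c, -0.14 (adjusted p 0.538) for Lmx1a, -0.90 (adjusted p 0.162) for Lrp2, -0.34 (adjusted p 0.471) for F5, -0.083 (adjusted p 0.747) for Clic6, -0.050 (adjusted p 0.883) for Otx2 and -0.034 (adjusted p 0.946) for Lepr. Folr1 went the other way at 12 weeks, with 1115 ± 133 CPM in MRL/lpr and 974 ± 9.25 CPM in MRL/+, a log2 fold change of 0.20 (SE 0.11, adjusted p 0.403) that did not pass although every MRL/lpr library was above every MRL/+ library, as was so for 9.84% of all genes. The sign of the fold change thus depended on the scaling at 16 weeks for Folr1, Clic6 and Lrp2. In rank among all 16598 genes, Prlr was within the lowest 0.657% of 16-week log2 fold changes with TMM and the lowest 0.621% after epithelial scaling, and Msx1 within the lowest 6.77% and 7.3%. Htr2c ranked below Msx1, within the lowest 3.95% and 3.99%, and Lmx1a was within the lowest 16.8% on both scales. The ranks of all 4 thus moved little with the scaling.

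**Figure D2:**
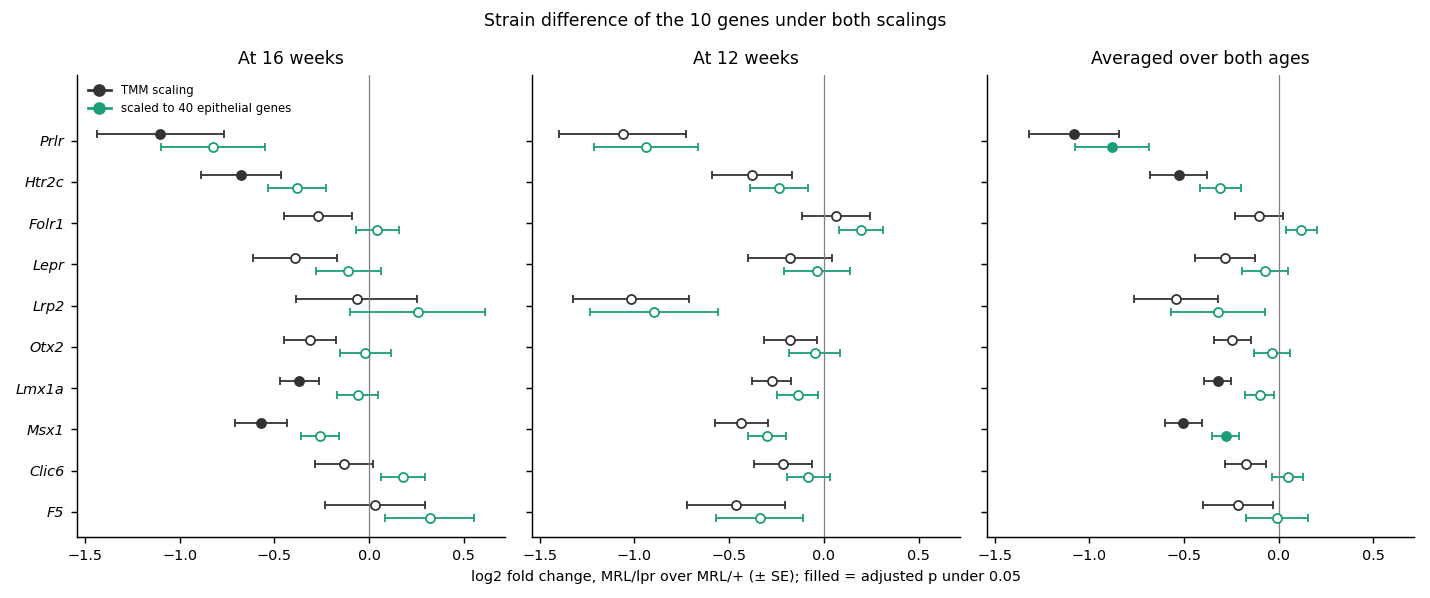
Log2 fold change of MRL/lpr over MRL/+ for the 10 genes at 16 weeks, at 12 weeks and averaged over both ages, with TMM scaling and with scaling to 40 epithelial genes. Error bars are the SE of the fit and filled points have an adjusted p under 0.05. Prlr lies between -1.10 and -0.82 in all panels, while Lmx1a moves to -0.059 at 16 weeks after epithelial scaling.

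A contrast that averages the strain difference over both ages was added after the data had been seen, because the differences at 12 and 16 weeks were of similar size for several members. With all 18 libraries behind it, this contrast called the same 4 members lower: Prlr -1.08 (SE 0.24, adjusted p 0.00397), Msx1 -0.50 (SE 0.10, adjusted p 0.00153), Lmx1a -0.32 (SE 0.072, adjusted p 0.00472) and Htr2c -0.53 (SE 0.15, adjusted p 0.0208), as log2 fold changes. Of all genes, 5.22% were called lower. Prlr, Msx1 and Lmx1a passed in all 18 fits with 1 library left out, and Htr2c in 15 of 18, being lost without MRL/+ replicate 2 or 3 of 12 weeks or MRL/+ replicate 3 of 16 weeks (highest adjusted p 0.0787). After epithelial scaling, 2 members passed, Prlr with -0.88 (SE 0.19, adjusted p 0.00393) and Msx1 with -0.28 (SE 0.072, adjusted p 0.0117), each in all 18 fits with 1 library left out. Prlr also passed in 7 of 7 other settings, and Msx1 in 5 of 7 (highest adjusted p 0.0855), with the transport genes alone and no filter as the exceptions. On that scale 0.615% of all genes were called lower. Htr2c had -0.31 (SE 0.11, adjusted p 0.0636) and Lmx1a -0.10 (SE 0.076, adjusted p 0.419) on that scale. The 6 members that did not pass with TMM scaling had averaged log2 fold changes of -0.54 (Lrp2), -0.28 (Lepr), -0.24 (Otx2), -0.22 (F5), -0.17 (Clic6) and -0.10 (Folr1).

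**Figure D3:**
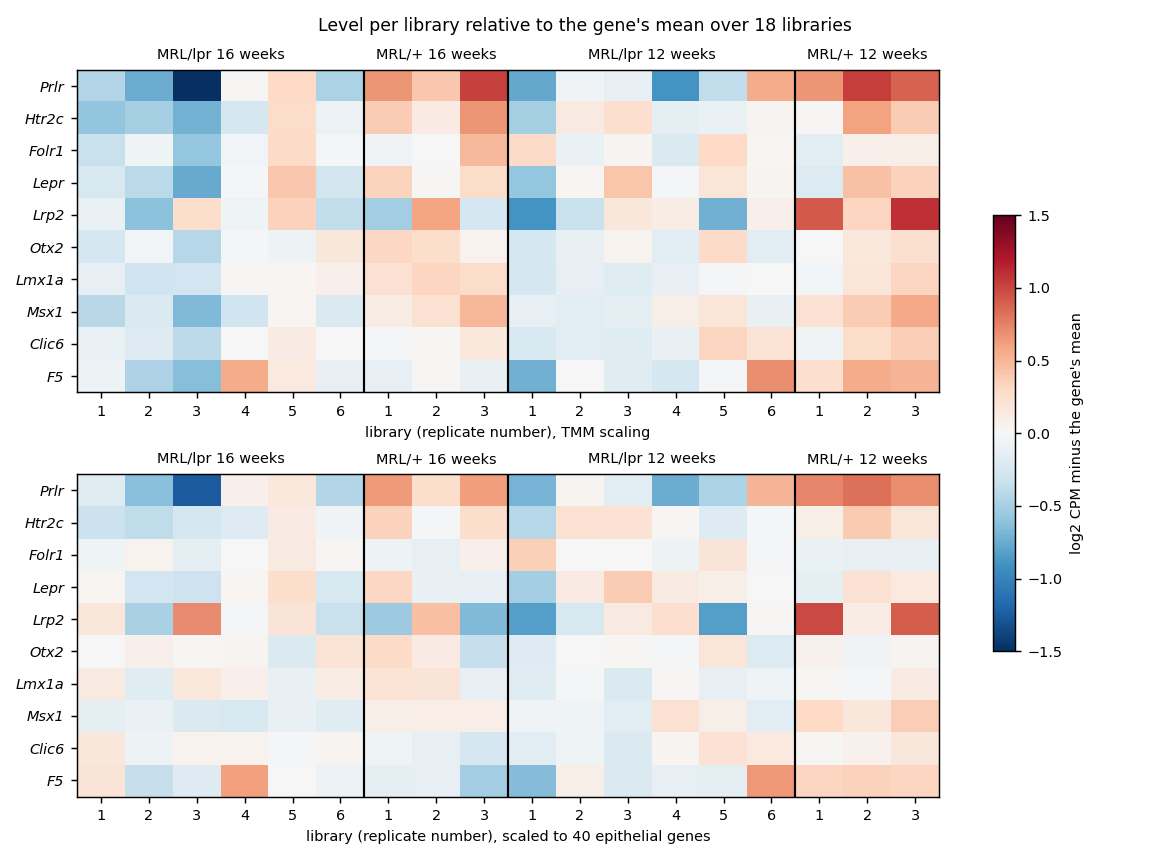
Log2 CPM of the 10 genes in each of the 18 libraries, centred on the mean of each gene, with TMM scaling and with epithelial scaling; the colour scale stops at 1.5 log2 units on either side. Under both scalings, the Prlr row is lower in every MRL/lpr library than in the MRL/+ libraries of the same age.

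Between 16 and 12 weeks, 0 of the 10 members were called in either strain, and 0 in the test of whether the strain difference changed with age. DESeq2 also called 0 members, against 0.561% of all genes in MRL/lpr, 0.0603% in MRL/+ and 0% for the interaction. Limma voom called 1 of 10 in MRL/+, F5, which is the background share there (10.4% of all genes). The share of all genes called was 0.0361% in MRL/lpr (6 genes), 0% in MRL/+ and 0% for the interaction. The unadjusted p was under 0.05 for 0 members in MRL/lpr, for 1 in MRL/+ and for 1 in the interaction, Lrp2 in both, against 6.73%, 13.1% and 13.8% of all genes. In MRL/lpr the log2 fold changes of 16 over 12 weeks ran from -0.24 to 0.15, with Msx1 lowest (SE 0.12, adjusted p 0.743). Lrp2 in MRL/+ had a log2 fold change of -0.80 (SE 0.36, adjusted p 0.379) and an interaction term of 0.95 (SE 0.45, adjusted p 0.361). F5 in MRL/+ read 588, 648 and 593 CPM at 16 weeks against 766, 944 and 917 CPM at 12 weeks. Those F5 groups did not overlap, as held for 1 of 10 members with the 16-week libraries lower, against 14.4% of all genes, and its log2 fold change was -0.52 (SE 0.30, adjusted p 0.421). After epithelial scaling 0 members were called as well, and of all genes 0.00602% in MRL/lpr (1 gene), 0% in MRL/+ and 0% for the interaction. On that scale limma voom called 2 of 10 in MRL/+, Clic6 and F5, against 16.2% of all genes. The unadjusted p of the main test was under 0.05 for 0 members in MRL/lpr, 2 in MRL/+ and 1 in the interaction. The shares of all genes were 7.34%, 11.1% and 14.5%. Prlr, Msx1, Clic6 and F5 had MRL/+ groups that did not overlap, with the 16-week libraries lower, as held for 14.2% of all genes. F5 in MRL/+ then averaged 538 ± 78.7 CPM at 16 weeks and 806 ± 8.27 CPM at 12 weeks (SD, n = 3 each), with a log2 fold change of -0.58 (SE 0.27, adjusted p 0.442).

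Genes that work with the receptors were examined next, as lists given by counts and medians with TMM scaling. Among all genes, 8.49% were called higher in MRL/lpr at 16 weeks and 5.01% at 12 weeks, and the counts below are to be read against these shares and those called lower. The ligand prolactin (Prl) was read in every library at 1 to 268 counts in MRL/lpr and 27 to 215 in MRL/+ at 16 weeks, and at 3 to 618 in MRL/lpr and 120 to 325 in MRL/+ at 12 weeks. Its log2 fold changes were -0.27 at 16 weeks (adjusted p 0.913) and 0.66 at 12 weeks (adjusted p 0.818). Prl is a product of the pituitary gland, whose marker genes summed to 18.2 to 88.2 CPM over the 18 libraries. Leptin (Lep) was listed at 0 in all 18. Of 15 measured genes of prolactin and growth hormone signalling, 2 were higher and 0 lower at 16 weeks, and 1 was higher at 12 weeks, with medians of 0.13 and 0.14. The 2 were Ptpn6, a tyrosine phosphatase abundant in blood cells (37.2 ± 22.2 CPM in MRL/lpr and 8.78 ± 0.639 CPM in MRL/+, log2 fold change 2.08, adjusted p 0.0139), and Socs3, a STAT3-induced inhibitor of cytokine receptors (23.7 ± 12.1 CPM in MRL/lpr and 8.94 ± 2.15 CPM in MRL/+, log2 fold change 1.41, adjusted p 0.0263). Each lost its call in 3 of 9 fits with 1 library left out. At 12 weeks Ptpn6 averaged 28.1 ± 15.1 CPM in MRL/lpr and 8.18 ± 0.95 CPM in MRL/+ (log2 fold change 1.78, adjusted p 0.0414), lost in 5 of 9 such fits. Of 11 measured leptin signalling genes, 2 were higher at 16 weeks and 0 at 12 weeks, namely Socs3 again and Stat3 (67.9 ± 23.0 CPM in MRL/lpr and 38.3 ± 5.92 CPM in MRL/+, log2 fold change 0.83, adjusted p 0.0406), which lost its call in 7 of 9 fits. Leprot, made from the same locus as Lepr, had log2 fold changes of -0.043 (adjusted p 0.854) at 16 weeks and 0.42 (adjusted p 0.0887) at 12 weeks.

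Of 17 measured genes of serotonin 2C signalling and transcript editing, 2 were higher at 16 weeks, and 1 was higher and 1 lower at 12 weeks, with medians of 0.53 and -0.14. Arrb2, an arrestin that binds activated receptors, was higher at both ages, with 24.4 ± 9.15 CPM in MRL/lpr and 7.73 ± 0.692 CPM in MRL/+ at 16 weeks (log2 fold change 1.66, adjusted p 0.00551) and 18.4 ± 6.45 CPM in MRL/lpr and 8.19 ± 2.17 CPM in MRL/+ at 12 weeks (2.24-fold, adjusted p 0.0457). The 16-week call of Arrb2 held in 9 of 9 fits with 1 library left out, and the 12-week call was lost in 7 of 9 and after epithelial scaling (adjusted p 0.0809). Adar, an interferon-inducible RNA editing enzyme, was higher at 16 weeks (41.8 ± 14.5 CPM in MRL/lpr and 18.7 ± 2.82 CPM in MRL/+, 2.24-fold, adjusted p 0.00987), a call lost without MRL/+ replicate 3 (adjusted p 0.0732). Adarb1, the other editing enzyme of the Htr2c transcript, was lower at 12 weeks (51.5 ± 10.3 CPM in MRL/lpr and 81.3 ± 29.6 CPM in MRL/+, log2 fold change -0.66, adjusted p 0.0402), a call lost in 6 of 9 fits and after epithelial scaling (adjusted p 0.258). Its log2 fold change moved to -0.29 (adjusted p 0.459) without MRL/+ replicate 1, the library with 544 CPM of cerebellar genes, and the adjusted p was 0.787 without the 4 libraries with markers of neighbouring tissue. Editing itself was not measured by these counts. In the folate list, 1 of 21 genes was higher at 16 weeks and 1 lower at 12 weeks, with medians of -0.081 and -0.14. They were Mthfd1l, a mitochondrial formate enzyme (3.35 ± 1.76 CPM in MRL/lpr and 0.803 ± 0.294 CPM in MRL/+, log2 fold change 2.06, adjusted p 0.0179, lost in 3 of 9 fits), and Mtrr, methionine synthase reductase (12.1 ± 1.04 CPM in MRL/lpr and 15.6 ± 1.05 CPM in MRL/+, log2 fold change -0.37, adjusted p 0.0413, lost in 7 of 9 fits and after epithelial scaling). In the megalin list, 1 of 21 genes was lower at 16 weeks and 1 higher at 12 weeks, with medians of 0.0037 and -0.063. Gipc1, an adaptor that binds the megalin tail, was the lower one (49.4 ± 6.97 CPM in MRL/lpr and 67.7 ± 8.7 CPM in MRL/+, log2 fold change -0.46, adjusted p 0.0467, lost in 7 of 9 fits and with adjusted p 0.547 after epithelial scaling), and Bmp4, which binds megalin, was the higher one.

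Of 29 measured genes of roof plate and choroid plexus patterning, 0 were higher and 2 lower at 16 weeks, and 3 were higher and 2 lower at 12 weeks, with medians of -0.14 and -0.064. Tlx2, a homeobox gene downstream of BMP signalling in the mouse embryo, was lower at both ages. It averaged 2.03 ± 0.488 CPM in MRL/lpr and 6.67 ± 2.46 CPM in MRL/+ at 16 weeks (log2 fold change -1.72, adjusted p 0.00284) and 1.1 ± 0.491 CPM in MRL/lpr and 6.62 ± 0.558 CPM in MRL/+ at 12 weeks (log2 fold change -2.57, adjusted p 0.000624), and it passed in 9 of 9 fits with 1 library left out at each age and after epithelial scaling. Msx2, the paralog of Msx1, was lower at 16 weeks (2.42 ± 0.424 CPM in MRL/lpr and 4.54 ± 0.716 CPM in MRL/+, log2 fold change -0.90, adjusted p 0.0226) and at 12 weeks (2.35 ± 0.694 CPM in MRL/lpr and 4.34 ± 0.759 CPM in MRL/+, log2 fold change -0.88, adjusted p 0.037). The Msx2 calls were lost in 5 of 9 and 7 of 9 fits and after epithelial scaling (adjusted p 0.195 and 0.208). Bmp4, a ligand of the dorsal midline, was higher at 12 weeks (30.7 ± 3.54 CPM in MRL/lpr and 17.8 ± 2.24 CPM in MRL/+, log2 fold change 0.79, adjusted p 0.00724), also after epithelial scaling (adjusted p 0.00229), and its call was lost without MRL/+ replicate 1 (adjusted p 0.0549). Wnt3a, a Wnt ligand of the dorsal midline, was higher at 12 weeks (1.15 ± 0.394 CPM in MRL/lpr and 0.331 ± 0.219 CPM in MRL/+, log2 fold change 1.75, adjusted p 0.0402), lost in 6 of 9 fits. Rspo3, an amplifier of Wnt signalling and the third higher gene, had a log2 fold change of 1.23 (adjusted p 0.0492, lost in 8 of 9 fits) and was named after its values were seen. Of 9 measured genes that mark the ventricle a choroid plexus comes from, 1 was higher at 16 weeks: Zic4, a zinc finger factor (29.1 ± 2.92 CPM in MRL/lpr and 17.4 ± 2.21 CPM in MRL/+, log2 fold change 0.75, adjusted p 0.00809), lost without MRL/+ replicate 3 (adjusted p 0.0656).

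Of 21 measured coagulation factors and regulators, the company of F5, 5 were higher and 0 lower at 16 weeks, and 4 were higher and 0 lower at 12 weeks, with medians of 0.23 and 0.88. Vwf, the carrier of factor VIII made by endothelium, averaged 11.8 ± 9.77 CPM in MRL/lpr and 1.66 ± 0.241 CPM in MRL/+ at 16 weeks (log2 fold change 2.82, adjusted p 0.0216) and 13.1 ± 7.95 CPM in MRL/lpr and 2.05 ± 1.64 CPM in MRL/+ at 12 weeks (log2 fold change 2.65, adjusted p 0.0361). Procr, the protein C receptor, averaged 4.37 ± 2.92 CPM in MRL/lpr and 0.721 ± 0.147 CPM in MRL/+ at 16 weeks (log2 fold change 2.58, adjusted p 0.0327) and 4.38 ± 3.17 CPM in MRL/lpr and 0.352 ± 0.179 CPM in MRL/+ at 12 weeks (log2 fold change 3.58, adjusted p 0.0118). Plau, the urokinase, was higher at 16 weeks (4.4 ± 2.88 CPM in MRL/lpr and 0.83 ± 0.251 CPM in MRL/+, log2 fold change 2.41, adjusted p 0.0265), and Tfpi, the tissue factor pathway inhibitor, at 12 weeks (10.6 ± 3.86 CPM in MRL/lpr and 4.69 ± 1.2 CPM in MRL/+, log2 fold change 1.18, adjusted p 0.0437, with adjusted p 0.0701 after epithelial scaling). F10, coagulation factor X, was also higher at 16 weeks (adjusted p 0.0485) and was named after its values were seen. Each of these calls was lost in 3 to 7 of 9 fits with 1 library left out. Endothelial markers summed to 75.5 to 267 CPM in MRL/lpr and 53.1 to 85.8 CPM in MRL/+ at 16 weeks, and to 65.5 to 254 CPM in MRL/lpr and 68.2 to 167 CPM in MRL/+ at 12 weeks, with 0 of 12 called and none at 0 in any library. Their part in these values, and that of the immune and macrophage markers above, was not tested. Without the 4 libraries with markers of neighbouring tissue, the calls named above in the lists from prolactin signalling to coagulation held for Arrb2 at 16 weeks, Tlx2 at both ages and Zic4. The lists of cell type markers and heat shock genes are not part of that statement. Of the 4 measured chloride intracellular channel genes, the family of Clic6, 0 were called at either age.

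**Figure D4:**
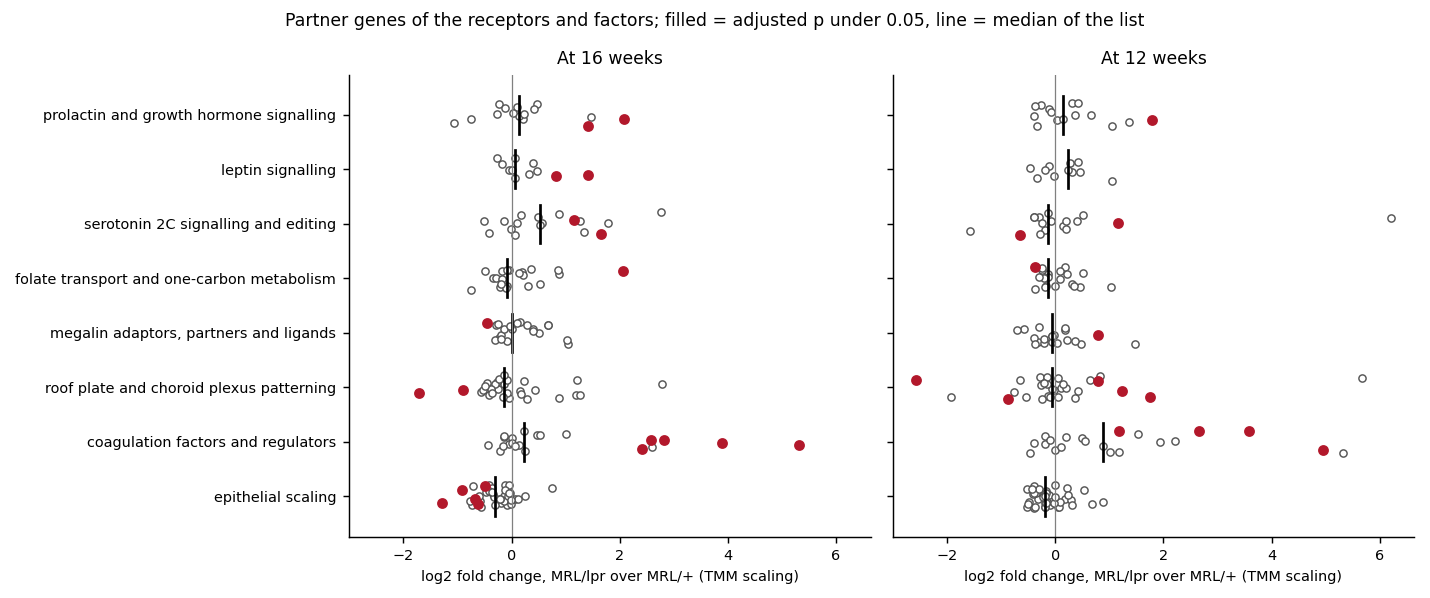
Log2 fold change of MRL/lpr over MRL/+ at 16 and 12 weeks, with TMM scaling, for the genes of 8 lists: prolactin and growth hormone signalling, leptin signalling, serotonin 2C signalling and editing, folate, megalin, roof plate patterning, coagulation, and the 40 epithelial genes. Each point is a gene, filled where the adjusted p is under 0.05, and the line is the list's median, which lies at -0.31 for the epithelial genes at 16 weeks.

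The genes whose pattern was most like that of each member were sought among the 9821 tested genes whose log2 CPM averaged 3 or more, by the root mean square difference of centred log2 CPM over the 18 libraries. These are descriptions with no test, and all 18 points share library depth and tissue makeup. For Prlr the nearest were P3h2 (0.338 log2 units), Cadm2 (0.377) and Slc35f1 (0.381), wider gaps than for any other member. Such gaps are not scaled to a gene's spread. Prlr also had the largest SD of the 10, 0.757 log2 units, followed by Lrp2 with 0.506. For Htr2c the nearest were Miga1 (0.141), Fsd1l (0.143) and Casc4 (0.143). Folr1 lay closest to Ogfod3 (0.0793), Yipf1 (0.0871) and Lrpap1 (0.0954), the last of which encodes the chaperone of megalin and related receptors. Lepr was nearest to Col8a1 (0.126), Cep290 (0.159) and Tbc1d8b (0.169), and Lrp2 to Zfp536 (0.327), Kif21a (0.329) and Ankrd52 (0.329). Otx2 was nearest to Chp1 (0.0727), Grsf1 (0.0819) and Galm (0.0820), and Lmx1a to Hspa4 (0.0855), Cyb5b (0.0893) and Numb (0.0938). Msx1 was nearest to Acadvl (0.127), a mitochondrial fatty acid enzyme, Tmem102 (0.129) and Ripk4 (0.142), an epithelial kinase. Clic6 was nearest to Myrip (0.0864), Arhgef16 (0.0933) and Aldh7a1 (0.0945), and F5 to Igf2r (0.144), Pdzd2 (0.147) and Notch2 (0.152).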

How the data were processed

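Total RNA of flash-frozen choroid plexus was made into libraries with an Illumina TruSeq RNA kit and run on a HiSeq2500, per the labels' protocols. The deposited values are unnormalised counts per gene, which the authors made with STAR 2.5.3a on GRCm38 and featureCounts 1.26.0, and analysed with DESeq2 1.16.1, per the submitters' processing notes. Annotation release, strand setting and the treatment of multi-mapping reads were not given in the sources used here.

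From the deposited counts of 18 libraries, genes were filtered with filterByExpr, scaled with TMM, and fitted with edgeR 4.0.16 (robust quasi-likelihood, 1 mean per group, all 18 libraries) in R 4.3.3. P-values were adjusted with Benjamini-Hochberg over 16598 genes, and a gene was called at 0.05. A second scaling used the geometric mean of 40 epithelial genes. RPKM used the exon lengths of the deposited table. DESeq2 1.42.0 and limma 3.58.1 (voom) were alternatives, with other filters, scalings and libraries left out. The test was tried on simulated data. The genes named besides the 10 were those called in each list, at most 4 per list and comparison by smallest p, the ligands, overlapping genes, and the 3 most alike genes per member. Not every gene this rule names is reported here. The members and lists were chosen with earlier results of these data known. Of 36 pairs of libraries within groups, none held the same library (lowest chi-square per gene 6.10). Promoters came from RefSeq (GRCm38.p6).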

Additional observations from a re-analysis of the deposited data

How the results depend on the processing

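The 10 genes kept the direction of their log2 fold changes and their side of the threshold in 586 of the 678 gene values recomputed under other settings, while 36 lost a call, 31 gained one and 25 changed sign. Most of the 586 were values that were not called in the main fit and stayed so. Only the 4 calls at 16 weeks with TMM scaling could be lost. Prlr kept its call in 5 of 9 other settings, Htr2c in 3, Lmx1a in 6 and Msx1 in 8. With 1 library left out, they kept it in 1, 2, 3 and 8 of 9 fits. The cause was not tested except where fewer genes or samples entered the fit. With TMM scaling at 16 weeks, where 4 members were called, the count was 6 by voom, 4 by DESeq2, 3 with DESeq2 size factors, 3 with upper quartile scaling, 2 with a filter at a mean of 5 CPM, 1 with no filter, 1 with only the groups compared, 0 without the 4 libraries with markers of neighbouring tissue, and 0 to 4 with each library left out. Among all genes, those called lower numbered 439 of 16598 in the main test, 2448 by voom and 627 of 16571 by DESeq2. They were 359 with DESeq2 size factors, 279 with upper quartile scaling and 178 of 11351 with the filter at 5 CPM. With no filter they were 171 of 31917, with only the groups compared 296 of 15724, and without the 4 libraries 53 of 16701. Leaving out each library gave 92 to 879. At 12 weeks, where 0 were called, DESeq2 called 3, limma voom 7 and fits without 1 library 0 to 2. Averaged over both ages, voom called 9 against 4. For 16 against 12 weeks in MRL/+, voom called 1 with TMM and 2 with epithelial scaling, against 0. With epithelial scaling at 16 weeks, where 0 were called, 1 (Prlr) was called with the median of the 40 genes, 1 without Ttr, 1 with the transport genes alone, 4 by voom, and 0 to 2 with each library left out. Of all 16598 genes, 69 were called lower there in the main test, 60 with the median, 71 without Ttr, 60 with the transport genes and 744 by voom. At 12 weeks voom called 3 and fits without 1 library 0 to 1. Averaged over both ages, where Prlr and Msx1 were called, the transport genes alone gave 1 and no filter 1 (Prlr in both), and voom 6. Voom called more of all genes than the main test, with 29.2% at 16 weeks and 34.5% averaged over both ages with TMM, and 43.3% averaged after epithelial scaling.

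The changes of sign were as follows, as log2 fold changes. F5 at 16 weeks was -0.22 by voom, -0.25 with the replicate block and -0.11 to 0.16 with libraries left out, and Folr1 at 12 weeks was -0.086 by voom and -0.020 with the block. Lrp2 at 16 weeks was -0.27 to 0.33 with libraries left out. With epithelial scaling, Otx2 was 0.014 with the median, 0.12 without the 4 libraries and -0.18 to 0.12 with libraries left out at 16 weeks, and 0.077 with the transport genes and 0.0049 without the 4 libraries at 12 weeks. Lepr was 0.049 without the 4 libraries and -0.19 to 0.049 with libraries left out at 16 weeks, and 0.0015 with the median, 0.083 with the transport genes and -0.14 to 0.057 with libraries left out at 12 weeks. Folr1 was -0.025 with the transport genes and Lrp2 -0.45 and F5 -0.02 by voom at 16 weeks, and Clic6 was 0.032 with the transport genes at 12 weeks. Lrp2 has no value under the filter at 5 CPM, and the interaction none with only the groups compared.

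The libraries share replicate numbers across groups, but the numbers did not pair them: over 21 same-number pairs the correlation of deviations was -0.67 to 0.44, 8 were over 0.1, and 4 libraries correlated best with their own number. With the replicate number as a block, 4 members were called at 16 weeks, 1 (Msx1) at 12 weeks, and 4 with TMM and 2 with epithelial scaling when averaged over both ages. The block gave 0 in the other comparisons.

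Lrp2 rested on 13 to 60 reads per library, and every strain test on 3 libraries per MRL/+ group. The averaged contrast was chosen after seeing the data. The 40 epithelial genes are themselves measured in these libraries, and their median log2 fold change was -0.31 at 16 weeks with TMM, which a scaling on them removes by construction.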
